A study of Mus musculus with 8 samples.

Results

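The testis niche growth factors described here are 9 mouse genes for secreted signals and receptors of the somatic and germ cell environment: Gdnf, Ret, Kitl, Inhba, Inhbb, Fgf9, Igf1, Igf1r and Pdgfa. They were taken by name, and every probe set carrying one of these symbols was kept, which gave 24 of the 45101 probe sets on the array, or 9 of 20984 genes with a probe set of their own. A probe set is a group of short probes that measures 1 transcript region, and its level is on the log2 scale, so that a difference of 1 is a doubling. None of the 9 genes passed the adjusted threshold for a difference between Ctcfl mutant and wildtype testis. The 9 main probe sets differed by -0.18 to 0.098, and their 95% intervals together ran from -0.49 to 0.39 on the log2 scale, or from 0.713 to 1.31 times the wildtype level. Intervals of other probe sets reached further, up to 0.59 for Kitl 1448117_at and from -0.50 to 0.79 for Igf1r 1446303_at.

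Whole testis RNA was taken at postnatal day 23 and measured on Affymetrix Mouse430_2 arrays. There were 5 arrays labelled wildtype (replicates 1, 2, 4, 6 and 7) and 3 labelled mutant (replicates 3, 5 and 8), with 1 array per sample. CTCFL, also called BORIS, is a paralog of the zinc finger protein CTCF that the male germ line makes shortly before meiosis. The mutants were homozygous for a Ctcfl deletion allele (Ctcfl del/del). The study's text describes the controls as Ctcfl del/+ littermates, whereas the labels call them wildtype. The name in the labels is kept here, and if the text is right the controls also carry 1 deleted copy. The deletion is constitutive, so no Cre line or promoter limits it to a cell type. The targeted gene was not analysed here and gives no check of the labels.

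The seminiferous tubule houses germ cells among Sertoli cells, and contractile peritubular cells, Leydig cells, macrophages and vessels lie around it. Its somatic cells make short-range growth factors that decide whether spermatogonial stem cells renew or differentiate and that match the number of Sertoli and Leydig cells to the tubule. GDNF from Sertoli and peritubular cells acts on stem spermatogonia through RET and its co-receptor GFRA1, KIT ligand from Sertoli cells acts on differentiating spermatogonia, activins and inhibins set Sertoli cell number and pituitary hormone release, and IGF1 and PDGFA act on Sertoli cell proliferation and on the precursors of Leydig cells.

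Above the median level of all probe sets were 10 of 10 Sertoli, 6 of 7 measured Leydig and 5 of 6 peritubular markers. Of the germ cell markers, 7 of 7 spermatogonia, 8 of 8 spermatocyte and 9 of 10 spermatid markers were above it. So were 6 of 8 fat, 5 of 6 macrophage and 3 of 6 endothelium markers. Of all 20984 genes 12593 were above it by main probe set, so this mark does not single out testis cells. Wildtype 7 and mutant 8 stood apart from the other 6 arrays. The mean level of 10 spermatid markers was 11.2 in wildtype 7 and 10.7 in mutant 8 against 8.64 to 9.32 elsewhere, and that of 8 fat markers was 7.73 and 7.68 against 5.68 to 6.45. This pair holds 1 array of each genotype. Several results that move with it are therefore also given with the pair as a block of its own, and without it. The block removes the pair's shared level. In whole tissue, fewer cells of a type and less RNA per cell cannot be told apart. Nothing in the labels says that the samples came from separate animals, so the p-values measure the spread between these samples.

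Promoter windows of the member genes are shown because CTCF and CTCFL are DNA-binding proteins, CTCF being named after the letters CCCTC. RefSeq (GRCm38.p6) had entries for 8 of the 9 genes, 10 in all, and the 150 bases before each start were searched on both strands. The windows printed are those of the genes whose start is the outer end of the annotated gene, and capitals mark CCCTC or its reverse complement GAGGG. They are Gdnf at chr15:7809898-7810047 (plus strand), Inhbb at chr1:119422249-119422398 (minus strand) and Igf1r at chr7:67952107-67952256 (plus strand).
Gdnf: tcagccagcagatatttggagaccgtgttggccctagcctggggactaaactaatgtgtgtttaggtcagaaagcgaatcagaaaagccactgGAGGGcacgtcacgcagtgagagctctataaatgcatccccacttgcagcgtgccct
Inhbb: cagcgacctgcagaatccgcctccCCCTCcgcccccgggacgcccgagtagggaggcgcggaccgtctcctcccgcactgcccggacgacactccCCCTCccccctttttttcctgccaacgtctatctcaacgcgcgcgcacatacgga
Igf1r: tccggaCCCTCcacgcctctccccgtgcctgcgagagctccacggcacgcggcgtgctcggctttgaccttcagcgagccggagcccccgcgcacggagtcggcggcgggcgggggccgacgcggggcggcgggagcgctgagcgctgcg

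The short motif CCCTC was in 8 of the 10 windows and in 47% of the 32851 mouse promoter windows searched in the same way. The longer AGGGGGC, a stretch of the CTCF motif core, was in 0 of 10 windows and in 6.86% of all windows, and the GC box GGGCGG was in 5 of 10 and 28.6%. The windows differed widely in base composition, with a GC content of 52.0% for the printed Gdnf window, 68.7% for Inhbb and 78.7% for Igf1r. A match is a string of letters and not a binding site, and no binding was measured in these samples.

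The first question was whether any member changed in the mutant testis. With limma, 0 of the 24 member probe sets had an adjusted p below 0.05 and 1 of 24 (4.17%), for Pdgfa, had an unadjusted p under 0.05, against 3.47% of all probe sets. At the adjusted threshold 0 of all 45101 probe sets passed too. The wildtype and mutant levels overlapped in 24 of the 24 member probe sets, whereas the groups did not overlap in 2.70% of all probe sets. The mutant mean was higher in 14 of 24 and lower in 10 of 24 (58.3% higher, against 51.5% of all probe sets). The median difference was 0.042 for the members and 0.0032 for all probe sets. The median wildtype SD was 0.135 for the members and 0.120 for all. Levels of different genes are not ranked here, since each probe set binds with its own strength.

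**Figure D1:**
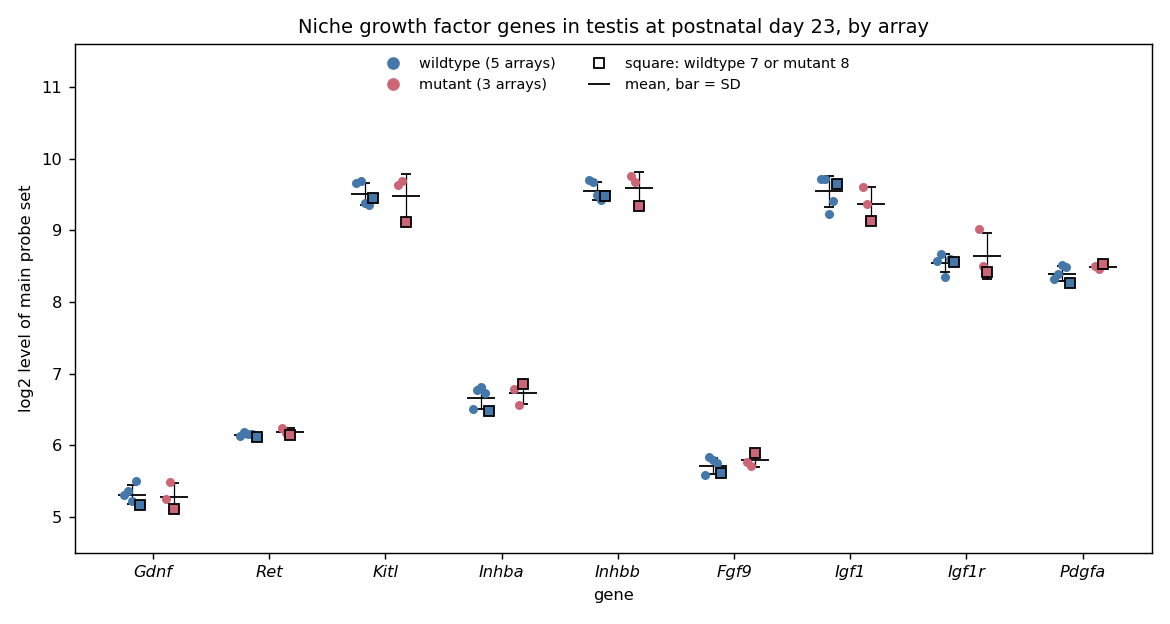
Log2 level of the main probe set of each of the 9 genes, 1 point per array, for 5 wildtype and 3 mutant arrays. Horizontal ticks are group means with SD bars, and squares mark wildtype 7 and mutant 8. The groups overlap for every gene, and mutant 8 is the lowest of the 8 arrays for Gdnf, Kitl, Inhbb and Igf1.

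Of the ligands for stem spermatogonia, Gdnf, which sustains stem cell renewal, lay below the median level of all probe sets. Its single probe set read 5.30, 5.37, 5.23, 5.50 and 5.17 in wildtype 1, 2, 4, 6 and 7 and 5.26, 5.49 and 5.11 in mutant 3, 5 and 8. Both extremes of the mutant group were matched by wildtype arrays, with wildtype 6 and mutant 5 together at the top and wildtype 7 and mutant 8 together at the bottom. The difference was -0.027 ± 0.10 (SE, 95% interval -0.26 to 0.20, limma unadjusted p = 0.800, exact permutation p = 0.821). The permutation is two-sided over the 8 arrays, and with 5 against 3 the smallest p it allows is 0.0357.

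Ret, the receptor tyrosine kinase through which GDNF acts, was below that median too. Its main probe set read 6.13, 6.18, 6.16, 6.15 and 6.11 in the wildtype arrays and 6.25, 6.18 and 6.14 in the mutants. All 8 arrays lay within 0.14 of each other, with mutant 3 at the top. The difference was 0.044 ± 0.059 (SE, 95% interval -0.088 to 0.18, limma p = 0.477, exact permutation p = 0.250), and the second Ret probe set gave -0.039, in the opposite direction.

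Gfra1, the co-receptor that presents GDNF to RET and marks stem spermatogonia, had the largest difference among all named partner genes. Its main probe set read 4.98, 5.08, 4.87, 5.31 and 5.00 in wildtype and 5.28, 5.51 and 5.42 in mutants. The mutants filled the upper end, but wildtype 6 lay above mutant 3, so the groups overlapped. The difference was 0.35 ± 0.10 (SE, limma p = 0.00611, adjusted p = 1.0, exact permutation p = 0.0714). The other Gfra1 probe sets gave -0.043 and 0.097, and all 3 lay below the median level of all probe sets.

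Among the 15 measured GDNF partners and targets, 2 had an unadjusted limma p under 0.05 and both were higher in the mutant, Gfra1 and Bcl6b, a GDNF-induced transcription factor of stem spermatogonia (0.17 ± 0.072, SE, limma p = 0.0411, exact permutation p = 0.0714). For this and every partner list below, the background for 1 probe set per gene was 3.04% of 20984 genes, or 1.66% counting higher values alone. Here and below, the partner lists were chosen with earlier results of these data known, so their shares are described and not weighed. With the pair as a block Bcl6b was at 0.16 and above that mark, as it was over the 6 arrays, while Gfra1 stayed under it in both. The transcription factor Sall4, named after its values were seen, was under the mark with the block (0.23). It was above the mark over all arrays (0.20) and over the 6 arrays (0.18). The list's median difference was -0.044, so the list as a whole did not lean the way these genes did. T (brachyury), another GDNF-responsive transcription factor, was 4.06 to 4.13 in the mutants and 4.14 to 4.61 in wildtype, without overlap and near the bottom of the array's range (-0.20 ± 0.11, SE, limma p = 0.113, exact permutation p = 0.0357). The mean of 7 measured spermatogonia markers was 8.71 to 8.93 in wildtype and 8.79 to 9.02 in mutant arrays, and the part of spermatogonia in the Gfra1 and Bcl6b values was not tested.

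Kitl encodes KIT ligand, or stem cell factor, the Sertoli cell signal for differentiating spermatogonia. Its main probe set read 9.66, 9.69, 9.38, 9.35 and 9.46 in wildtype and 9.63, 9.69 and 9.11 in mutants. Mutants 3 and 5 were level with the top wildtype arrays and mutant 8 was the lowest of all. The difference was -0.030 ± 0.14 (SE, 95% interval -0.34 to 0.28, limma p = 0.831, exact permutation p = 0.786).

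The Kitl probe sets gave differences of both signs, although the main one and 1448117_at moved alike across the arrays. Both were higher in wildtype 1 and 2 and in mutants 3 and 5 than in the other arrays. The second, 1448117_at, read 7.82, 8.05, 7.47, 7.61 and 7.71 in wildtype and 8.04, 8.25 and 7.54 in mutants. Its difference was 0.21 ± 0.17 (SE, limma p = 0.236, exact permutation p = 0.357). It was 0.25 with wildtype 7 and mutant 8 as a block, 0.41 over the 6 arrays without them (limma adjusted p = 0.751), and 0.41 without mutant 8 alone, while mutant 8 minus wildtype 7 was -0.17. Both fits without mutant 8 had an unadjusted p under 0.05. The remaining Kitl probe sets, both below the median level, differed by -0.028 and -0.014.

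Kit, the receptor of KIT ligand, differed by 0.097 ± 0.075 (SE, limma p = 0.226, exact permutation p = 0.250) with mutant levels of 8.37 to 8.51 and wildtype levels of 8.24 to 8.47. Of the 10 KIT partners, all measured, 1 had an unadjusted limma p under 0.05, against 3.04% of all genes. It was the ubiquitin ligase Cbl, which ends receptor signalling (-0.19 ± 0.081, SE, limma p = 0.0398, exact permutation p = 0.0714). The other Cbl probe sets gave -0.053 and 0.093. The median of the list was 0.044, but 0.13 without mutant 8, 0.12 without both arrays of the pair and -0.025 without mutant 3.

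**Figure D2:**
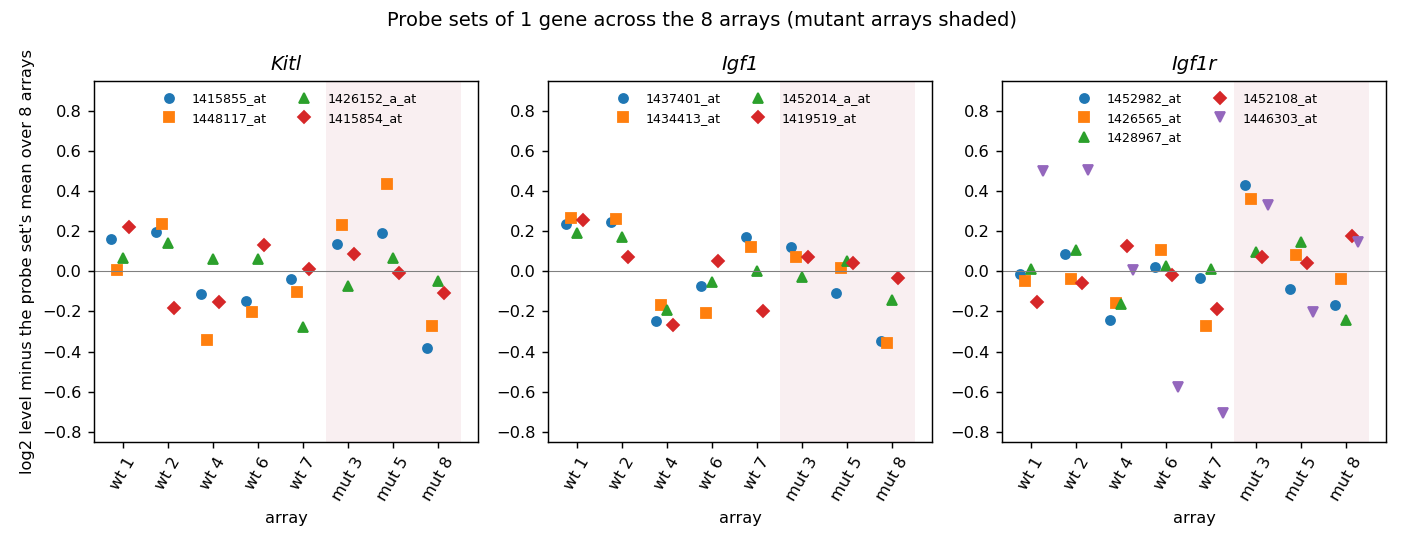
Log2 level of each probe set of Kitl, Igf1 and Igf1r on each array (x axis), as the difference from that probe set's mean over the 8 arrays (y axis). The mutant arrays are shaded. The Igf1 probe sets 1437401_at and 1434413_at share a low value in mutant 8, and so do the main Kitl probe set and Kitl 1448117_at. Igf1 1419519_at is near its mean there (6.89 against 6.92). The Igf1r probe sets lie on both sides of their means in mutant 8 (1428967_at 7.06 against 7.30, 1452108_at 6.39 against 6.21). Igf1r 1446303_at spans 1.21.

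Inhba and Inhbb encode the beta A and beta B subunits that pair with each other as activins or with the alpha subunit as inhibins. The main Inhba probe set read 6.51, 6.77, 6.81, 6.72 and 6.48 in wildtype and 6.78, 6.56 and 6.86 in mutants. Mutant 8 was the highest array and wildtype 7 the lowest. The difference was 0.075 ± 0.10 (SE, 95% interval -0.16 to 0.31, limma p = 0.487, exact permutation p = 0.429), and it was 0.080 with that pair as a block and -0.032 over the 6 arrays without it. The other Inhba probe set, far below the median level, gave -0.018.

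Inhbb probe sets carry a second, unnamed locus symbol in the annotation, so their signal cannot be given to Inhbb alone. The main probe set read 9.70, 9.68, 9.49, 9.42 and 9.47 in wildtype and 9.76, 9.67 and 9.35 in mutants. As for Kitl, mutants 3 and 5 stood with the highest wildtype arrays and mutant 8 below all others. The difference was 0.040 ± 0.11 (SE, 95% interval -0.20 to 0.28, limma p = 0.721, exact permutation p = 0.857), and the second probe set gave -0.0056.

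Inha, the alpha subunit that turns activin subunits into inhibin and is made by Sertoli cells, read 10.99, 11.02, 10.75, 11.00 and 11.04 in wildtype and 11.37, 11.09 and 10.88 in mutants. Mutants 3 and 5 were above every wildtype array, and mutant 8 was below all of them but wildtype 4. The difference was 0.15 ± 0.11 (SE, limma p = 0.208, exact permutation p = 0.393). The mean of the 10 Sertoli markers was 8.89 to 8.95 in wildtype arrays and 9.12, 9.07 and 8.86 in mutants 3, 5 and 8, and its part in the Inha, Kitl and Inhbb values was not tested.

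The activin receptors Acvr1b, Acvr2a and Acvr2b differed by 0.049, 0.11 and 0.067, and the activin-binding protein Fst by 0.0078, none with an unadjusted limma p under 0.05. Their second probe sets gave, in that order, -0.097, 0.043, 0.055 and -0.043, none under that mark either. Among the 16 activin and inhibin partners 1 passed that mark, against 3.04% of all genes. It was the decoy receptor Bambi (-0.19 ± 0.085, SE, limma p = 0.0482, exact permutation p = 0.0714), which was above that mark over the 6 arrays. The list had 12 of 16 genes above 0, against 51.9% of all genes, and a median of 0.024.

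Fgf9, a growth factor of testis formation that also acts on spermatogonia, was dim on both of its probe sets. The main one read 5.58, 5.83, 5.80, 5.75 and 5.62 in wildtype and 5.76, 5.71 and 5.89 in mutants. The mutants lay in the upper part of the wildtype range, with mutant 8 just above it. The difference was 0.072 ± 0.081 (SE, 95% interval -0.11 to 0.25, limma p = 0.398, exact permutation p = 0.393), and the second probe set gave 0.051.

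Of the 18 FGF partners, 3 had an unadjusted limma p under 0.05, against 3.04% of all genes. In the same 3 the groups did not overlap, against 2.56% of genes without overlap in the background. This list too was chosen with earlier results of these data known, so the share is a description only. Fgf18, another FGF ligand, read 4.73, 4.69, 4.66, 4.58 and 4.47 in wildtype and 4.90, 4.88 and 4.76 in mutants (0.22 ± 0.078, SE, limma p = 0.0191, exact permutation p = 0.0357). Spry4, a feedback inhibitor of receptor tyrosine kinase signalling, read 5.91, 5.95, 5.92, 6.04 and 5.79 in wildtype and 6.15, 6.08 and 6.10 in mutants (0.19 ± 0.070, SE, limma p = 0.0246, exact permutation p = 0.0357). Fgf10, a mesenchymal ligand, went the other way, with 5.14, 5.04, 5.29, 5.07 and 5.39 in wildtype and 5.00, 4.78 and 5.04 in mutants (-0.25 ± 0.10, SE, limma p = 0.0334, exact permutation p = 0.0357).

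All these FGF levels were below the median of all probe sets, and each adjusted p was 1.0. A second Spry4 probe set was also without overlap, at 5.38 to 5.43 in mutants and 5.22 to 5.37 in wildtype, while the other Spry4 probe sets gave -0.072 and -0.075. The receptor Fgfr1 differed by 0.072 (limma p = 0.522, exact permutation p = 0.536), and its other probe sets by -0.035 and -0.076. The median of the FGF list was 0.0017. With the pair as a block Fgf10, Fgf18 and Spry4 stayed under an unadjusted p of 0.05, and over the 6 arrays Spry4 did not. The receptor Fgfr2, named after its values were seen, was under that mark in both (0.32 with the block, against 0.29 over all arrays).

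Igf1 had the lowest difference of the 9 main probe sets. IGF1 is made by Leydig, peritubular and Sertoli cells and drives Sertoli cell proliferation. Its main probe set read 9.71, 9.72, 9.23, 9.40 and 9.65 in wildtype and 9.60, 9.37 and 9.13 in mutants. Mutant 8 was the lowest array, next to wildtype 4, and the other mutants lay inside the wildtype range. The difference was -0.18 ± 0.14 (SE, 95% interval -0.49 to 0.14, limma p = 0.235, exact permutation p = 0.321).

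The genotype difference of Igf1 was larger within the pair that stood apart than over the other arrays. Mutant 8 minus wildtype 7 was -0.52, and the difference over the other 6 arrays was -0.032. With the pair as a block, which keeps the contrast within it, the difference was -0.16, close to the value over all arrays. The next Igf1 probe set followed it, with -0.15 over all arrays, -0.48 in the pair, 0.0043 over the 6 and -0.13 with the block. The remaining Igf1 probe sets gave -0.065 and 0.044. Among marker lists, the mean of 7 Leydig markers was 8.78 in wildtype 7 and 8.55 in mutant 8, that of 10 Sertoli markers 8.93 and 8.86, that of 6 macrophage markers 7.41 and 7.18, and that of 6 peritubular markers 7.79 and 7.82. Over all arrays 6 of 7 Leydig markers were higher in the mutant mean, against 51.9% of all genes. So were 9 of 10 Sertoli, 5 of 6 macrophage and 4 of 6 peritubular markers. The median difference of the Leydig markers was 0.14, against 0.0037 of all genes, and 0.32 over the 6 arrays. The part of these cells in the Igf1 value was not tested.

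Igf1r, the receptor of IGF1, was measured by 5 probe sets. The main one read 8.57, 8.67, 8.34, 8.61 and 8.55 in wildtype and 9.01, 8.50 and 8.42 in mutants. Mutant 3 stood above all other arrays and the other mutants lay within the wildtype range. The difference was 0.094 ± 0.13 (SE, 95% interval -0.20 to 0.39, limma p = 0.496, exact permutation p = 0.607), and it was -0.091 without mutant 3.

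Igf1r 1426565_at read 7.43, 7.44, 7.32, 7.59 and 7.21 in wildtype and 7.84, 7.56 and 7.44 in mutants. Wildtype 6 lay above mutants 5 and 8. The difference was 0.22 ± 0.11 (SE, limma p = 0.0764, exact permutation p = 0.214), the highest of the 24, and 0.25 ± 0.087 with the pair as a block (p = 0.0164, adjusted p = 0.827). With that block 5.86% of all probe sets had an unadjusted p under 0.05. The remaining Igf1r probe sets gave 0.0011, 0.15 and 0.15, the last of them, 1446303_at, with wildtype values from 4.95 to 6.16, wider than any difference between the groups.

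Of the 18 IGF partners, 0 had an unadjusted limma p under 0.05 and 9 of 18 were above 0, with a median of 0.0059. The insulin receptor Insr, which pairs with IGF1R and shares its signalling, differed by 0.053 (limma p = 0.631, exact permutation p = 0.679). Igf2r, which clears IGF2 from the cell surface, differed by 0.047 (limma p = 0.643, exact permutation p = 0.679). The other probe sets gave -0.027 and 0.033 for Insr and 0.13 and 0.12 for Igf2r.

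Pdgfa, the Sertoli cell ligand for Leydig cell precursors, gave the lowest p of the members. Its main probe set read 8.32, 8.39, 8.52, 8.49 and 8.26 in wildtype and 8.50, 8.46 and 8.52 in mutants. The mutants were close together (SD 0.032, n = 3) at the upper end of the wildtype range (SD 0.11, n = 5). The difference was 0.098 ± 0.076 (SE, 95% interval -0.071 to 0.27, limma p = 0.225, exact permutation p = 0.214).

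The second Pdgfa probe set, 1449187_at, read 7.55, 7.47, 7.40, 7.57 and 7.41 in wildtype and 7.56, 7.66 and 7.73 in mutants. Mutants 5 and 8 were above every wildtype array, and mutant 3 was just under wildtype 6. The difference was 0.17 ± 0.072 (SE, 95% interval 0.013 to 0.33, limma unadjusted p = 0.0369, adjusted p = 1.0, exact permutation p = 0.0714). It was 0.17 with the pair as a block (limma adjusted p = 0.849), still with an unadjusted p under 0.05, and 0.12 over the 6 arrays without the pair, then above that mark. With each of the 8 arrays left out in turn it stayed between 0.13 and 0.22, and its unadjusted limma p was above 0.05 without wildtype 2, 4 or 7 or mutant 5 or 8.

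Pdgfra, the PDGFA receptor of Leydig precursors and peritubular cells, read 9.72, 9.89, 9.57, 9.56 and 9.52 in wildtype and 9.80, 9.91 and 9.15 in mutants. Mutant 8 was far below the rest and mutant 5 was the highest. The difference was -0.034 ± 0.16 (SE, limma p = 0.839, exact permutation p = 0.857). A second Pdgfra probe set read 7.02 to 7.40 in mutants against 6.82 to 7.15 in wildtype and differed by 0.27 ± 0.12 (SE, limma p = 0.0447, exact permutation p = 0.143), and a further one by 0.22 ± 0.11 (SE, limma p = 0.0645, exact permutation p = 0.143). With wildtype 7 and mutant 8 as a block, these other Pdgfra probe sets differed by 0.30 and 0.24. Over the 6 arrays without that pair they differed by 0.34 and 0.38. Both were under the unadjusted mark of 0.05 in each of these fits, and neither passed the adjusted threshold with the block. The main Pdgfra probe set gave 0.021 and 0.17 in the same fits and was above the unadjusted mark in both. Pdgfrb differed by -0.049, and by 0.073 on its other probe set. Of the 6 PDGF partners 0 had an unadjusted limma p under 0.05 on the main probe set. The list's median was 0.033, but 0.21 without mutant 8, 0.18 without both arrays of the pair, -0.013 without mutant 5 and -0.011 without mutant 3. The mean of the 6 peritubular markers was 7.79 to 8.04 in wildtype and 7.82 to 8.11 in mutant arrays.

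**Figure D3:**
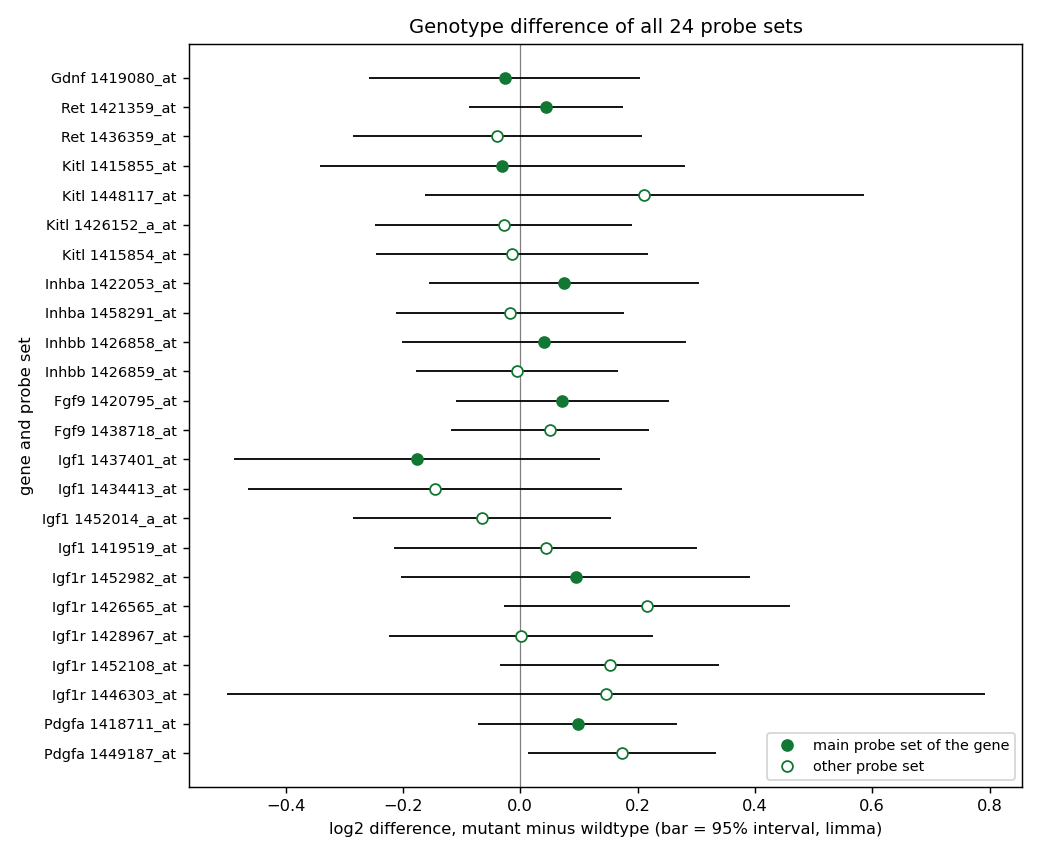
Log2 difference, mutant minus wildtype, of all 24 probe sets of the 9 genes (x axis), with 95% intervals from limma; filled points are main probe sets. The interval of 1 probe set, Pdgfa 1449187_at, leaves out 0, and 22 of the 24 intervals lie within 0.5 of no difference.

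The lowest level of a member often fell on the same few arrays. Of the 24 member probe sets, 8 were lowest in wildtype 7 (33.3%, against 20.0% of all probe sets), 6 in mutant 8 (25.0%, against 17.2%) and 6 in wildtype 4 (25.0%, against 10.1%). Mutant 8 was also the highest array for 6 of the 24, so it was not low throughout. Of the 9 main probe sets 4 were lowest in mutant 8 and 3 in wildtype 7.

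As a description over 8 arrays, the genes whose levels ran closest to each member were sought among up to 12593 genes above the median level. Kitl ran closest with Pls3 (Pearson r = 0.989, Spearman rho = 0.952), Inhbb with Dicer1 (r = 0.986, rho = 0.952), and Igf1 with Ms4a4d (r = 0.985, rho = 0.929). Pdgfa ran closest with 4933412E24Rik (r = 0.981, rho = 0.976), Ret with Gpd1 (r = 0.960, rho = 0.976) and Igf1r with Txndc17 (r = 0.960, rho = 0.810). Gdnf was closest to Cnot8 (r = 0.958, rho = 0.976) and Inhba to Zbtb7b (r = 0.955, rho = 0.905). Fgf9 was closest to Snx20 (r = 0.933, rho = 0.690), followed by another member, Inhba (r = 0.932, rho = 0.905). The mean of the pair that stands apart minus that of the other 6 arrays was -0.28 for Kitl, but 0.011 for Fgf9 and -0.024 for Inhba. Each gene was picked as closest out of up to 12593 over only 8 arrays. Such a choice alone favours high values, so they do not show shared regulation, and no p is given.

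Across the 7 partner lists, 112 of 113 genes were measured, 0 had a limma adjusted p below 0.05, and 8 (7.14%) were under 0.05 before adjustment, against 3.04% of all genes. Of these, 4 were higher and 4 lower in the mutant (background 1.66% and 1.38%). In 4 genes (3.57%, against 2.56%) the groups did not overlap, in 2 of them upward and in 2 downward (background 1.32% and 1.24%). As the lists were chosen with earlier results of these data known, an excess over the background cannot be weighed here. The count of genes under 0.05 was uneven across arrays left out in turn, with 4 genes without wildtype 2, 5 without wildtype 1, 4 or 7, and 13 without mutant 8. How many of all genes were under 0.05 in these fits was not counted, so the rise and fall cannot be weighed either. List medians were not firm either. With single arrays left out the IGF median ran from -0.082 (without mutant 3) to 0.043 (without mutant 8), the FGF median from -0.032 (without wildtype 7) to 0.019 (without wildtype 4), the GDNF median from -0.051 (without wildtype 7) to -0.011 (without wildtype 4), the activin and inhibin median from 0.0058 (without wildtype 7) to 0.046 (without mutant 8), and that of the other niche factors from -0.0040 (without mutant 3) to 0.050 (without mutant 8). The median difference of the partners was 0.017, against 0.0037 of all genes. Among 29 other niche factors (TGF beta, hedgehog, EGF, Notch, chemokine and similar signals), 1 had an unadjusted p under 0.05, Hgf, the ligand of the MET receptor (-0.17 ± 0.074, SE, limma p = 0.0452, exact permutation p = 0.0714), and its other probe sets gave 0.12 and 0.019.

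**Figure D4:**
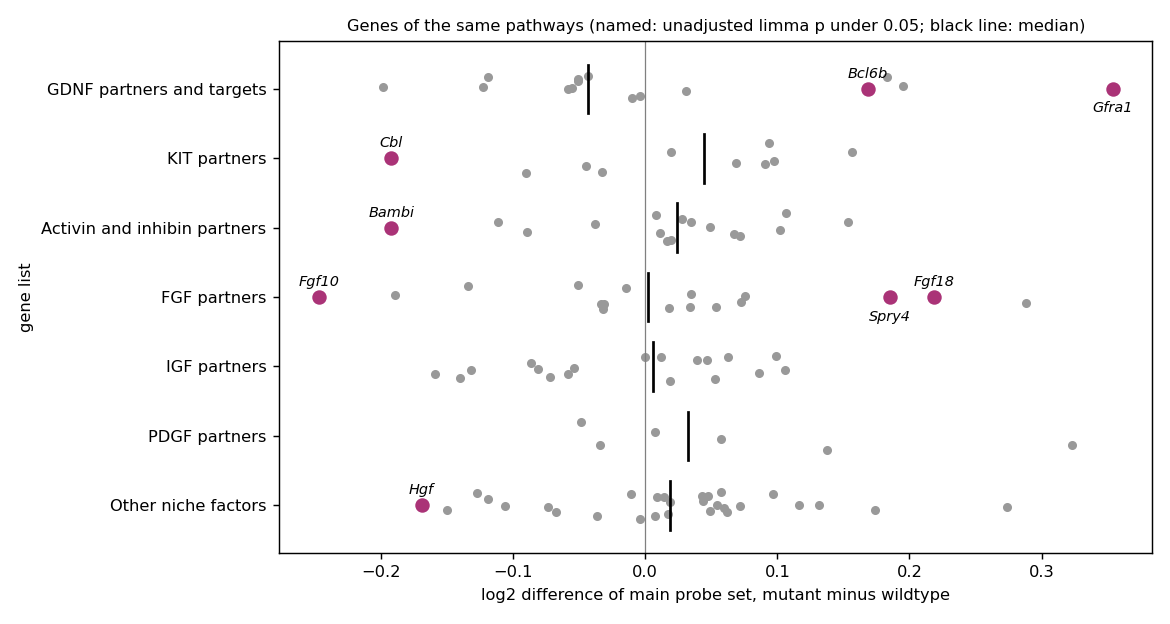
Log2 difference, mutant minus wildtype, of the main probe set of the 112 measured partner genes, 1 point per gene, in 7 lists (y axis); vertical bars are list medians. The 8 named genes had an unadjusted limma p under 0.05 and lie on both sides of 0, and the list medians run from -0.044 to 0.044.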

How the data were processed

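Per the labels and the study's methods, the authors scanned 8 Affymetrix arrays and deposited log2 levels per probe set after RMA background correction and quantile normalization. Versions and the annotation's genome build are not given in the sources used here. Columns of the authors' own comparisons (fold changes, means, t and B scores, p-values) were not used, and 0 per-sample columns were left unmapped. The levels were fitted as deposited, without a filter, over all 45101 probe sets with lmFit and eBayes in limma 3.58.1 under R 4.3.3. Tests were two-sided, p-values were adjusted by Benjamini and Hochberg over all probe sets, and the fit was tested on simulated data. Exact permutations, summaries and figures used Python 3.11.15, numpy 2.4.6, pandas 2.3.3, scipy 1.17.1 and matplotlib 3.10.9. Of 38810 probe sets with an Entrez ID, 34893 were named through the RefSeq gene table (GRCm38.p6), others by the file's symbols.

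A gene's main probe set is its brightest on average, taken among those without an _s_at or _x_at ending if there are any. Named are all members, a fixed set of their receptors and binding partners, the listed partners with an unadjusted p under 0.05 or no overlap, and the genes most correlated with each member. Members and lists were chosen with earlier results of these data known. The alternatives were each array left out, probe sets above the median level, median centring, repeated quantile normalization, an intensity trend with a robust prior, no shared variance, array weights, other probe sets and 1 probe set per gene. A block for wildtype 7 with mutant 8, and leaving both out, were chosen after seeing the data. The number of arrays limits the precision.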

Additional observations from a re-analysis of the deposited data

Results flagged for a closer look

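In 44 sets of wildtype values, those of the members and named partners, the lowest or highest of the 5 arrays was compared with its nearest neighbour, and chance alone flags about 1 in 20 such groups. In 3 sets 1 wildtype array lay far from the others. Kitl 1426152_a_at was 5.98 in wildtype 7, with the next array at 6.32. Acvr2a 1451004_at was 8.56 in wildtype 4, with the next at 8.84. Inha 1422728_at was 10.75 in wildtype 4, with the next at 10.99, and without wildtype 4 the Inha difference stayed positive.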

How the results depend on the processing

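No paired analysis was possible because the labels record no litter or pair. The study's text calls the groups littermates, so a shared litter, if there was one, was left out of the fits. The count of all probe sets past an adjusted p of 0.05 was 0 as reported and 1 with wildtype 7 and mutant 8 as a block, and 0 members and 0 partner genes passed it in any alternative. The unadjusted count of 1 member probe set became 0 with an intensity trend and robust prior, 0 with array weights, 0 with 1 main probe set per gene, 2 with the block and 2 without both arrays. It ran from 0 to 2 with single arrays left out, being 0 without wildtype 2, wildtype 7 or mutant 5 and 2 without wildtype 6 or mutant 8. Without wildtype 4 the 1 counted was Igf1r, not Pdgfa. The count of 8 partner genes became 2 among probe sets above the median level and 15 without both arrays, and ran from 4 (without wildtype 2) to 13 (without mutant 8). The share of all genes under 0.05 was not counted in these fits, so these changes have no background beside them. None of the differences that turned sign had passed a threshold. Under array weights, the block and both arrays left out, Gdnf was 0.012, 0.0025 and 0.025, Kitl 0.057, 0.0072 and 0.14, and Pdgfra 0.073, 0.021 and 0.17. Without both arrays Inhba was -0.032, Fgf9 -0.0021 and Pdgfrb 0.027. Other probe sets gave -0.039 for Ret, 0.21 for Kitl, -0.018 for Inhba, -0.0056 for Inhbb and 0.044 for Igf1. With single arrays left out the range was -0.13 to 0.062 for Gdnf, -0.13 to 0.15 for Kitl, -0.043 to 0.16 for Inhbb, -0.091 to 0.21 for Igf1r, -0.0062 to 0.089 for Acvr1b, -0.0078 to 0.022 for Fst, -0.031 to 0.15 for Insr, -0.18 to 0.20 for Pdgfra and -0.14 to 0.013 for Pdgfrb. The cause of these changes was not tested. Of the 24 member probe sets 10 were at or below the median level of all. The main probe sets among them had SEs of 0.059 (Ret), 0.081 (Fgf9) and 0.10 (Gdnf). Those of the brighter members ran from 0.076 (Pdgfa) to 0.14 (Kitl and Igf1), so the 2 ranges overlapped.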
